A study of Canis lupus familiaris with 6 samples.

Results

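YAP1, WWTR1 (the gene of TAZ), TEAD1, TEAD2, TEAD3, TEAD4 and VGLL4 were followed in CPEK cells, a line of canine epidermal keratinocytes, as the transcription arm of the Hippo pathway. The genes were chosen by symbol, but with earlier results of these data known. They are 7 of the 35993 genes in the deposited gene table and hold 24 of the 87504 transcripts in the transcript table. Wild-type CPEK cultures were treated directly for 30 s with CAMP, a cold atmospheric microwave plasma (dCAMP, 3 libraries), or with the gas alone (gas control, 3 libraries). In both groups the medium was exchanged 15 min after the exposure and RNA was collected 24 h later. The comparison bears on whether dCAMP alters the RNA of these factors in keratinocytes without a wound.

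YAP and TAZ are paralogous coactivators that do not bind DNA themselves. The Hippo kinases MST1/2 (genes STK4 and STK3) and LATS1/2 phosphorylate them, which holds them in the cytoplasm or marks them for degradation, and without this phosphorylation they enter the nucleus and bind the TEAD proteins. TEAD1 to TEAD4 are the DNA-binding partners, and VGLL4 competes with YAP and TAZ for the same TEADs and acts as a corepressor. In the epidermis YAP and TAZ are active mainly in basal cells and support their proliferation and the closure of wounds. Their activity is set largely by phosphorylation and localization, which RNA levels do not measure.

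In the deposited annotation (CanFam3.1), YAP1 (gene ID 479465) lies at chr5:29394760-29495977 and has 1 transcript model. WWTR1 (609743) lies at chr23:44277707-44409911, also with 1 model. TEAD1 (610713) lies at chr21:35667862-35935180 with 6 models, TEAD2 (484381) at chr1:107115014-107130563 with 6, TEAD3 (100855973) at chr12:4610663-4627817 with 1 and TEAD4 (611826) at chr27:41744100-41783223 with 3. VGLL4 (607588) lies at chr20:6751951-6915650 with 6 models. The loci of YAP1, TEAD1, TEAD2 and TEAD3 overlap 5 other annotated genes, none of which had more than 9 counts in a library.

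The libraries held 43084921 to 54082634 gene counts. All 10 keratinocyte markers examined, among them KRT5, KRT14 and TP63, were expressed, with a summed level of 19353 to 24276 FPKM in gas and 18089 to 19217 FPKM in dCAMP, FPKM being fragments scaled to transcript length and to the mapped reads of the library. Most of the sum was KRT5 and KRT14, with means of 9589 and 9009 FPKM over the libraries, so it does not stand for the other markers. KRT14 was lower in every dCAMP library than in any gas library, whereas DSG3, ITGA6 and CDH1 were higher. The groups overlapped for the rest of the markers. The summed markers of fibroblasts, endothelium, immune cells and melanocytes reached 0.395, 2.39, 0.908 and 0.409 FPKM at most in gas and 0.318, 3.13, 0.635 and 0.689 FPKM in dCAMP, and DCN, LUM, PECAM1, PTPRC, CD3E, TYR and DCT were at 0 in every library. The gas libraries stood apart from each other: on the first principal component of log2 expression, which held 71.2% of the variance, they lay at -94.1, -23.0 and 21.7, and the dCAMP libraries between 28.6 and 33.6. The median gene differed from the dCAMP mean by 0.48 on the log2 scale in gas 1, by 0.29 in gas 2 and by 0.13 in gas 3, in either direction.

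YAP1 was the most abundant of the 7 transcripts per unit length, and none of the 7 genes was called changed by dCAMP. Expression is given first as CPM, the counts scaled to the TMM-normalized library size, which compares libraries for 1 gene. YAP1 had 74.7, 62.0 and 62.6 CPM in gas and 61.0, 58.4 and 60.02 CPM in dCAMP. All dCAMP values lay below the lowest gas value, but gas 1 stood well above the other libraries and the groups were close, with 62.0 CPM in gas 2 and 61.0 CPM in dCAMP 1. The log2 fold change was -0.15 ± 0.11 (SE, 95% interval -0.41 to 0.10, adjusted p = 0.365, edgeR's quasi-likelihood test), and in TPM the groups overlapped, with 88.96 in gas 2 and 93.02 in dCAMP 1. In bulk RNA, a lower level per cell and fewer cells with the transcript cannot be told apart.

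WWTR1 showed the widest spread. It had 53.5, 66.8 and 91.2 CPM in gas and 90.7, 91.9 and 94.1 CPM in dCAMP. Gas 1 and gas 2 were far below the dCAMP libraries, whereas gas 3 lay among them. The log2 fold change was 0.39 ± 0.19 (SE, 95% interval -0.08 to 0.85, adjusted p = 0.274, edgeR), which corresponds to a 1.31-fold higher mean with an interval from 0.947 to 1.81. In FPKM the groups were barely separated, with 17.74 in gas 3 and 17.75 in dCAMP 1.

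Of the TEAD genes, TEAD1 had 132, 134 and 164 CPM in gas and 159, 162 and 161 CPM in dCAMP. As for WWTR1, gas 1 and gas 2 were low and gas 3 was within reach of the dCAMP libraries, here above all 3 of them. TEAD3 took the opposite course, with 74.7, 63.2 and 53.97 CPM in gas and 56.4, 52.1 and 55.1 CPM in dCAMP. Its gas 1 and gas 2 values were high, and gas 3 fell inside the dCAMP range. The log2 fold changes were 0.17 ± 0.11 for TEAD1 (SE, adjusted p = 0.337, edgeR) and -0.23 ± 0.14 for TEAD3 (SE, adjusted p = 0.314, edgeR).

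TEAD2 had 36.4, 32.9 and 27.03 CPM in gas and 32.3, 27.5 and 30.8 CPM in dCAMP. TEAD4 had 61.2, 56.3 and 48.1 CPM in gas and 55.4, 52.1 and 49.3 CPM in dCAMP. For both genes the dCAMP values fell between the extremes of gas, with fold changes of -0.09 ± 0.14 (SE, 95% interval -0.43 to 0.25) and -0.08 ± 0.12 (SE, 95% interval -0.37 to 0.21) on the log2 scale and adjusted p-values of 0.684 and 0.658 (edgeR). VGLL4 had 36.6, 33.3 and 33.3 CPM in gas and 30.5, 30.0 and 31.1 CPM in dCAMP. All its dCAMP values lay below gas, with a log2 fold change of -0.17 ± 0.09 (SE, 95% interval -0.40 to 0.06, adjusted p = 0.296, edgeR), whereas in TPM its groups overlapped.

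**Figure D1:**
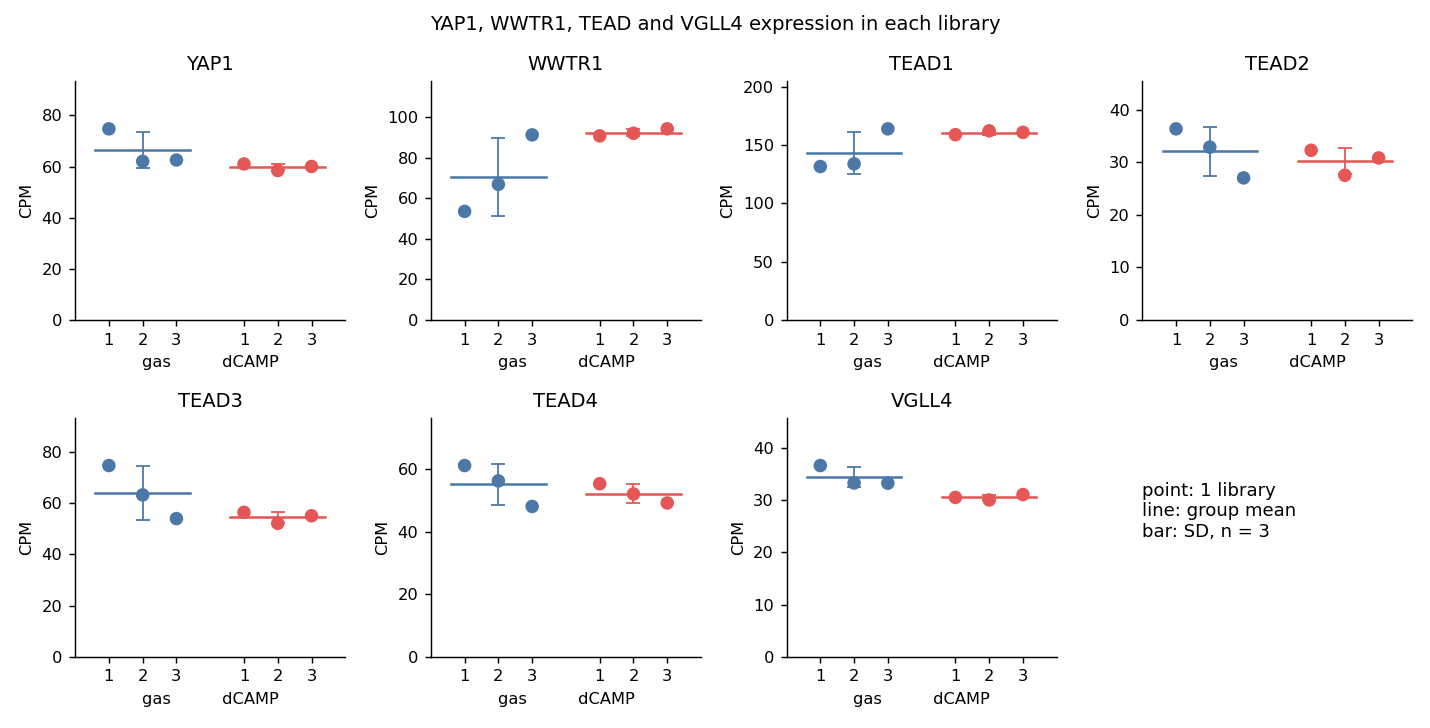
Expression of each gene in CPM (y axis, from 0) in gas libraries 1 to 3 (blue) and dCAMP libraries 1 to 3 (red), with the group mean as a line and the SD (n = 3) as a bar. The gas points of WWTR1 run from 53.5 to 91.2 CPM, while its dCAMP points lie between 90.7 and 94.1 CPM.

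Thus 0 of the 7 genes had an adjusted p under 0.05 and 0 had an unadjusted p under 0.05, and both counts were also 0 with DESeq2. Over all 14708 genes tested, edgeR called 0% at an adjusted p under 0.05, and 20.7% had an unadjusted p under 0.05. With DESeq2 these shares were 1.48% and 17.3% of 20284 genes. The call rule of the study's methods asks for a change of at least 2-fold and for an unadjusted p under 0.05, and it was met by 0 of the 7 and by 1.09% of all genes. The CPM values of the groups did not overlap for 2 of the 7 genes, YAP1 and VGLL4, both lower in dCAMP. Over all genes tested they did not overlap for 39.9%, in 20.9% with dCAMP lower. The median log2 fold change was -0.09 over the 7 genes and 0.03 over all genes tested.

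The replicate spread was larger among the gas libraries for each of the 7 genes. The CV of YAP1 was 10.8% in gas and 2.17% in dCAMP, that of WWTR1 27.1% and 1.90%, and that of TEAD1 12.6% and 1.03%. Counting alone gives a CV of 1.17% to 2.72%. The chi-square statistic of the counts per degree of freedom, which is near 1 for sampling noise, ran from 0.38 (VGLL4) to 8.66 (TEAD2) among the dCAMP libraries and from 5.31 (VGLL4) to 257 (WWTR1) among the gas libraries. Gas 1 was the gas library farthest from the dCAMP mean for 7 of 7 genes, as it was for 74.1% of all genes tested.

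Without gas 3, the gas library nearest to dCAMP, WWTR1 (log2 fold change 0.57, adjusted p = 0.0233, edgeR) and TEAD1 (0.23, adjusted p = 0.0464) were called higher and TEAD3 (-0.39, adjusted p = 0.0447) lower. That is 3 of 7 genes, beside 33.1% of all 14975 genes tested in that fit. Without gas 1, the one farthest from dCAMP, 0 of 7 were called beside 0.00667% of all genes, and the fold changes were 0.21 for WWTR1, -0.08 for YAP1 and -0.02 for TEAD4. The voom method of limma with a quality weight for each library, which set gas 2 at 6.73 and gas 1 and gas 3 at 0.115 and 0.192, called WWTR1 and TEAD1 higher and TEAD3 and VGLL4 lower. That fit called 60.8% of all genes.

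**Figure D2:**
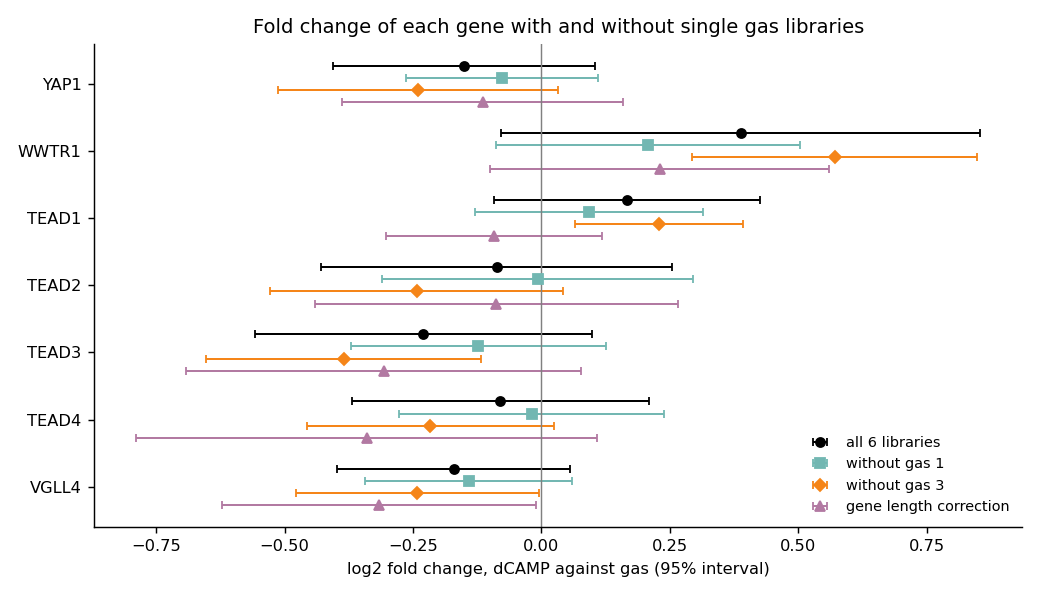
Log2 fold change of dCAMP against gas (x axis) with its 95% interval for each gene, fitted on all 6 libraries (black), without gas 1 (teal), without gas 3 (orange) and after a correction for gene length (purple). Every black interval includes 0, and without gas 3 those of WWTR1, TEAD1, TEAD3 and VGLL4 do not. The estimate of TEAD1 is above 0 in black and below 0 after the length correction, after which the interval of VGLL4 lies below 0.

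Gene length moved with the fold changes. The median log2 fold change rose from -0.08 for the 3653 genes under 1500 bases to 0.24 for the 577 genes of at least 8000 bases, and gas 1 differed from the dCAMP mean by a median of 0.18 in the first class and -0.41 in the last. TEAD1, with models of 8199 to 8274 bases, belongs to the last class, and YAP1, with 1212 bases, to the first. After a correction of each library for gene length, TEAD1 turned from 0.17 to -0.09, TEAD4 went from -0.08 to -0.34 and WWTR1 from 0.39 to 0.23. VGLL4 went from -0.17 to -0.32 with an unadjusted p of 0.0448 (adjusted p = 0.232, edgeR), 1 of 7 beside 21.1% of all genes, and 0 of the 7 had an adjusted p under 0.05. The part of gene length in these values was not tested further.

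Levels between genes were compared in FPKM. YAP1 stood at 42.6 to 55.5 FPKM, above each of the other 6 genes in 6 of 6 libraries and at percentile 88.2 of the genes tested, whose median was 6.82 FPKM. Its model of 1212 bases is the shortest of the set and may be incomplete, which was not tested. The length is a multiple of 3, but so are those of WWTR1 (4458 bases) and of the shortest TEAD1 model (8199 bases). The FPKM of YAP1, its rank and its ratio to WWTR1 rest on the length of 1212 bases. In counts YAP1 lay below WWTR1 in 5 of 6 libraries. TEAD3 (16.5 to 24.1 FPKM), TEAD1 (14.3 to 17.4 FPKM), WWTR1 (10.8 to 18.6 FPKM) and TEAD2 (11.1 to 15.8 FPKM) followed, each overlapping the next in this order, whereas the range of TEAD3 lay wholly above that of TEAD2. TEAD3 exceeded TEAD1 in 4 of 6 libraries, TEAD1 exceeded WWTR1 in 2 of 6, both gas, and WWTR1 exceeded TEAD2 in 4 of 6. VGLL4 (6.99 to 9.11 FPKM) and TEAD4 (6.28 to 8.32 FPKM) were the lowest. VGLL4 lay below TEAD2 in every library, and above TEAD4 in 5 of 6. In counts the order was different, since TEAD1 had the most counts of the 7 (6095 to 8699 per library) and the longest transcripts.

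**Figure D3:**
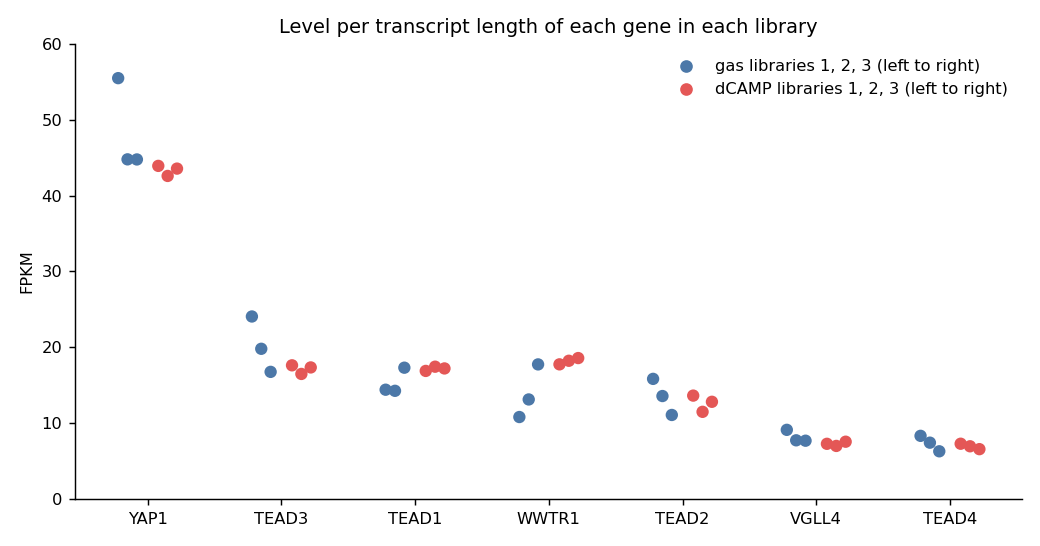
FPKM (y axis, from 0) of each gene in gas libraries 1 to 3 (blue) and dCAMP libraries 1 to 3 (red), ordered by the mean over all 6. YAP1 lies between 42.6 and 55.5 FPKM, apart from the rest. TEAD3, TEAD1, WWTR1 and TEAD2 each overlap the next in this order, while TEAD3 lies above TEAD2.

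Shares within a library do not depend on library scaling, but they carry the gene-length trend of each library. WWTR1 made up 16.3%, 22.7% and 28.4% of the summed YAP1 and WWTR1 FPKM in gas and 28.8%, 30.0% and 29.9% in dCAMP, or 22.4% ± 6.05 against 29.5% ± 0.663 (SD, n = 3). The groups did not overlap, but gas 3 was close to dCAMP 1. The exact permutation test gave a two-sided p of 0.1, the smallest that 3 against 3 libraries allow (0.10), and 0.233 after adjustment over the 7 quantities tested. In other terms, YAP1 exceeded WWTR1 by 5.14, 3.41 and 2.52 times in gas and by 2.47, 2.34 and 2.35 times in dCAMP. The log2 fold change of WWTR1 minus that of YAP1 was 0.54 in the edgeR fit and 0.34 with the length correction, and the shares were not recomputed with it.

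Among the 4 TEAD genes, TEAD3 held 38.4%, 36.0% and 32.6% of the summed FPKM in gas and 31.8%, 31.5% and 32.2% in dCAMP (exact permutation p = 0.1, adjusted p = 0.233). TEAD1 held 23.0%, 25.9% and 33.7% in gas and 30.5%, 33.3% and 31.9% in dCAMP (exact permutation p = 0.4). In gas 1 TEAD3 was thus well ahead of TEAD1, and in gas 3 and the dCAMP libraries the 2 were nearly even. TEAD2 held 21.5% to 25.3% and TEAD4 12.2% to 13.5% over all libraries (exact permutation p = 0.7 and 0.5).

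The ratio of the coactivators YAP1 and WWTR1 to the 4 TEADs was 1.06, 1.05 and 1.22 in gas and 1.11, 1.16 and 1.15 in dCAMP (exact permutation p = 0.6), with the dCAMP values inside the gas range. The ratio of VGLL4 to YAP1 plus WWTR1 was 0.137, 0.133 and 0.123 in gas and 0.118, 0.115 and 0.121 in dCAMP. All dCAMP ratios were lower, again with the smallest possible exact p of 0.1 (adjusted p = 0.233).

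**Figure D4:**
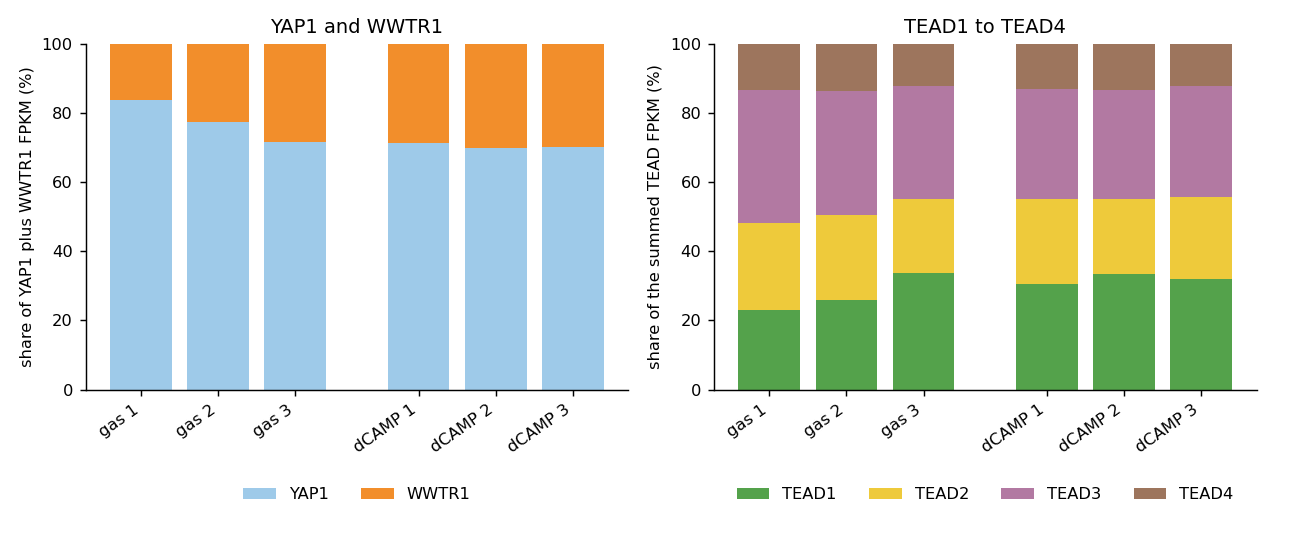
Share of the summed FPKM (y axis, %) of YAP1 and WWTR1 (left) and of the 4 TEAD genes (right) in each library. The WWTR1 share is 16.3% in gas 1 and between 28.4% and 30.0% in gas 3 and the dCAMP libraries, and the TEAD3 share is highest in gas 1 (38.4%).

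Transcript models were examined for the 4 genes that have several. In a fit over 30886 transcripts, 23 of the 24 member transcripts passed the filter on low counts, and 0 had an adjusted or an unadjusted p under 0.05 (edgeR, smallest adjusted p = 0.627). Over all transcripts the shares were 0% and 8.59%. X4 led TEAD1 with 34.3% to 56.5% of the counts, X3 led TEAD2 with 41.6% to 89.7% and X1 led TEAD4 in 5 of 6 libraries with 41.4% to 77.3%. VGLL4 X1 held 32.7% to 47.3%. The groups overlapped for all 21 shares (smallest exact permutation p = 0.2, adjusted p = 1 for all).

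Some models switched between replicates. VGLL4 X3 had 547, 269 and 45 counts in gas and 0, 14 and 726 in dCAMP, and X4 had 216, 2 and 301 in gas and 640, 24 and 0 in dCAMP. The 2 models differ by 3 bases in length (3422 and 3419), and X2, X3 and X4 together held 54.7%, 45.4% and 61.7% of VGLL4 counts in gas and 48.7%, 38.4% and 54.3% in dCAMP, a sum chosen after these values were seen. VGLL4 X5 had 22 counts in gas 1 and 0 elsewhere, and a count of 0 allows up to 3. TEAD2 X1 had 450, 43 and 42 counts in gas and 383, 37 and 46 in dCAMP, and X2 had 283, 42 and 52 in gas and 255, 22 and 34 in dCAMP, so both were high in gas 1 and dCAMP 1 and low in the other 4 libraries. TEAD2 X4 had 1 count in gas 3 and 100 to 402 elsewhere. Over the 17 member shares with a mean of 5% to 95%, the median SD between replicates was 7.98 percentage points in gas and 8.60 in dCAMP, beside 6.59 and 5.74 over all 15105 transcripts with such a mean share.

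**Figure D5:**
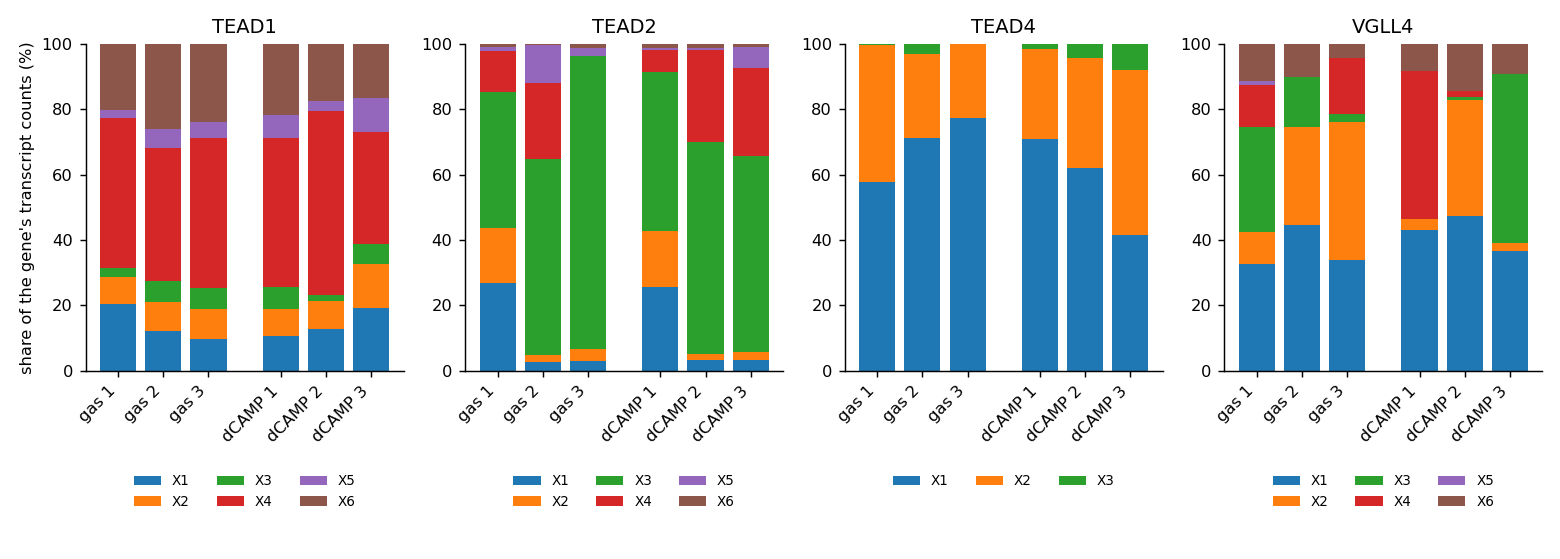
Share of each gene's transcript counts (y axis, %) held by its models X1 to X6 in each library. TEAD2 X1 and X2 are large in gas 1 and dCAMP 1 alone, and VGLL4 X3 and X4 alternate between libraries of the same group.

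The other genes of the pathway were taken from 4 lists of 81 genes in all, of which 78 were tested (NCOA3 was not found by symbol, RBMS3 was at 0 and AMOT was under the filter). The member TEAD1 is also a listed target and is counted among the 78. AMOTL2, AJUBA, PTPN14 and LATS2 stand in more than 1 list and are counted once in the 81. An unadjusted p under 0.05 was reached by 18 of 78, 11 higher and 7 lower in dCAMP, beside 6.81% higher and 13.9% lower over all genes tested. With the length correction it was again reached by 18 of 78, but 6 were higher and 12 lower, beside 21.1% of all genes in either direction. The signs of all 78 estimates moved too, from 48 positive and 30 negative to 35 positive and 43 negative. An adjusted p under 0.05 was reached by 0 of 78 with edgeR and by 1 with DESeq2, beside 0% and 1.48% of all genes. The 2-fold rule was met by 2 of 78, beside 1.09% of all genes. Without gas 3 an adjusted p under 0.05 was reached by 28 of 78, beside 33.1% of all genes in that fit. Without gas 2 or any 1 of the dCAMP libraries an unadjusted p under 0.05 was reached by 4 to 8. The range of shares over all genes when 1 library was left out is given at the end.

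In the Hippo core (STK3, STK4, SAV1, MOB1A, MOB1B, LATS1 and LATS2), 6 of 7 estimates were positive (5 with the length correction, where STK4 turned negative), with a median log2 fold change of 0.66, and 1 of 7 had an unadjusted p under 0.05 (SAV1, the scaffold of the MST kinases, 0.66, adjusted p = 0.240). With all 6 libraries in edgeR none met the 2-fold rule. In 5 of the 12 alternative fits 1 did. The share over all genes is not given here for those 5 fits, so that count is not read as a result about the list. Without gas 3 the rule was met by 4, beside 10.2% of all genes. The number with an unadjusted p under 0.05 was 1 to 6 in the alternative fits and 0 to 5 when 1 library was left out. The 6 came with voom, beside 64.9% of all genes, and the 5 without gas 3, beside 49.2%. MOB1B, a coactivator of the LATS kinases, had 4.32, 11.4 and 27.96 CPM in gas and 30.8, 33.9 and 30.4 CPM in dCAMP, and STK3 had 3.89, 7.58 and 13.4 CPM in gas and 13.5, 17.3 and 13.8 CPM in dCAMP. In both, gas 1 was by far the lowest and gas 3 close to dCAMP, as for WWTR1. The estimates were 1.12 ± 0.60 and 0.84 ± 0.42 (log2, SE, adjusted p = 0.292 and 0.275, edgeR). The smallest were 0.14 for STK4 and -0.02 for LATS2. The median of the list was 0.38 without gas 1 and 1.03 without gas 3.

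Of 29 upstream and binding regulators tested, 3 were higher and 4 lower at an unadjusted p under 0.05, with a median log2 fold change of 0.01. Over all genes tested 6.81% were higher and 13.9% lower. With the length correction 0 regulators were higher and 6 lower. DCHS1, a protocadherin that binds FAT4, met the 2-fold rule (-1.16 ± 0.42, SE, adjusted p = 0.226, edgeR), but it had 4 to 29 counts per library. Of 19 cofactors tested, 2 were lower at an unadjusted p under 0.05 (median -0.02), and 5 with the length correction. RUNX1 had an estimate of -0.41, VGLL3 of 0.66 and FOS, a subunit of AP-1, of 0.75, with 105.9 CPM in dCAMP 1 and 24.7 and 39.5 CPM in dCAMP 2 and 3. VGLL1 had 0 to 14 counts per library, against 413 to 1073 for VGLL3.

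Of 27 TEAD target genes tested, a list that holds TEAD1 itself, 7 were higher and 1 lower at an unadjusted p under 0.05. Over all genes tested 6.81% were higher and 13.9% lower. The median log2 fold change of the targets was 0.08. ANKRD1, a target used as a readout of YAP activity, met the 2-fold rule. It had 0.583, 0.817 and 1.34 CPM in gas and 2.05, 2.80 and 1.53 CPM in dCAMP, a log2 fold change of 1.18 ± 0.36 (SE, adjusted p = 0.221, edgeR). The groups did not overlap, at a level near 1 CPM in gas. No target met the 2-fold rule without gas 1, without dCAMP 2 or with limma on log2 FPKM plus 1. The 2 targets most often read out, CYR61 (CCN1) and CTGF (CCN2), had estimates of 0.28 ± 0.28 and 0.48 ± 0.25 (log2, SE, adjusted p = 0.498 and 0.285, edgeR). Both had their highest value in dCAMP 1 (191.7 and 13.2 CPM). The paper also names MYC, AXL, BIRC5 and CCND1 as YAP and TAZ targets. Their estimates were -0.27, -0.16, -0.26 and 0.04, and BIRC5 was the 1 lower gene at an unadjusted p under 0.05. Of the 27 estimates, 17 were positive and 10 negative. With the length correction 13 were positive and 14 negative (median -0.004), and 5 were higher and 2 lower at an unadjusted p under 0.05. With upper-quartile scaling factors 13 were positive and 14 negative (median -0.01, beside -0.06 over all genes). THBS1, a matricellular glycoprotein gene named here after its value was seen, had the lowest p of the 78 genes and the only adjusted p under 0.05 with DESeq2 (0.00100). It had 489, 519 and 531 CPM in gas and 759, 679 and 771 CPM in dCAMP, a log2 fold change of 0.52 ± 0.08 (SE, adjusted p = 0.221, edgeR). Unlike WWTR1, its gas libraries were close together and all below dCAMP.

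Genes whose log2 CPM ran most like each member over the 6 libraries were GABPB1 and TCF12 for WWTR1 (Pearson's r = 0.9997 and 0.9996), SHB and ACTN4 for TEAD3 (0.999 and 0.999), FKBP1A and LEPR for TEAD1 (0.999 and 0.998), and ING5 and LIMK1 for YAP1 (0.998 and 0.997). For TEAD4 they were TRAPPC2L and ANKRD2 (0.997 and 0.995), for VGLL4 TWF2 and AP4M1 (0.996 for both), and for TEAD2 INPP5K and CTIF (0.994 and 0.993). These coefficients are descriptions over 6 libraries that share the distance of gas 1 from the rest. For WWTR1, 2442 of the 11995 genes compared had an r above 0.95, and for TEAD4 71 did. Among the members themselves WWTR1 and TEAD1 ran together (r = 0.962), and both ran opposite to TEAD3 (r = -0.975 and -0.928).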

How the data were processed

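Per the labels and the study's methods, the authors trimmed reads and removed PCR duplicates (FastQC 0.11.7, Trimmomatic 0.38), mapped them to CanFam3.1 with HISAT2 2.1.0 and summarized known transcripts with StringTie 2.1.3b. The deposited counts are whole numbers per gene and transcript without normalization. The authors' FPKM and TPM values are scaled for transcript length and depth. How overlapping genes were counted is not given in the sources used here.

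The analysis used R 4.3.3 with edgeR 4.0.16 (TMM, filterByExpr, prior count 2, quasi-likelihood test without a block, Benjamini-Hochberg adjustment over all genes or transcripts), limma 3.58.1 and DESeq2 1.42.0, tested on simulated data. Replicates may not be separate cultures, so p-values measure the spread between these libraries.

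All members are named. From each other list, genes past the 2-fold rule or, where there was none, the 2 highest and 2 lowest estimates are named, with VGLL1 and the 2 genes most correlated with each member. A further result is not reported here. SAV1, CYR61, CTGF, MYC, AXL, BIRC5, CCND1 and THBS1 were added after their values were seen. The members and lists were chosen with earlier results of these data known. Alternatives were other scaling factors and filters, DESeq2, voom, limma on log2 FPKM, a length correction, the replicate block and leaving out each library.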

Additional observations from a re-analysis of the deposited data

How the results depend on the processing

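All 7 members kept the sign of their fold change in the 12 alternative fits and in the 6 that left out 1 library, except TEAD1, which turned to -0.093 with the length correction and to -0.092 with that correction and the replicate block. The number of members with an adjusted p under 0.05 was 0 except with voom's quality weights (4) and without gas 3 (3), so that leaving out 1 library gave 0 to 3. At an unadjusted p under 0.05 it was 4 with voom (64.9% of all genes), 1 with the length correction (21.1%) and 0 to 4 when 1 library was left out, with 4 without gas 3 (49.2%).

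Of the genes of the 4 lists, which hold TEAD1, those with an adjusted p under 0.05 numbered 1 with either DESeq2 filter and 49 with voom (60.8% of all genes). They numbered 0 to 28 when 1 library was left out, with 28 without gas 3 (33.1%). Those with an unadjusted p under 0.05 numbered 53 of 78 with voom (64.9% of all genes) and 4 to 41 when 1 library was left out (6.86% to 49.2%). Those past the 2-fold rule numbered 3 with DESeq2 on genes with a count in every library, with voom and with the length correction plus block. They numbered 1 with at least 10 counts in every library, with the replicate block and with limma on log2 FPKM plus 1. For these counts of 3 and 1 the share over all genes is not given here, so they are not read as a result about the lists. When 1 library was left out they numbered 1 to 6, with 6 without gas 3 (10.2% of all genes). LATS2 turned to 0.15 with voom, and STK4 to -0.061 with the length correction, with and without the block. When 1 library was left out, LATS2 ranged from -0.13 to 0.084, CYR61 from -0.046 to 0.44 and FOS from -0.067 to 1.07, CYR61 and FOS being negative without dCAMP 1 and LATS2 positive without gas 1.

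The difference in the TEAD2 share ranged from -1.54 to 0.350 percentage points when 1 library was left out, and that in the TEAD4 share from -0.524 to 0.206. The WWTR1 share difference ranged from 4.03 (without gas 1) to 10.1 points (without gas 3). Member transcripts with an unadjusted p under 0.05 numbered 0 to 2, and shares without overlap 1 to 4. The cause of these differences was not tested. With 1 library left out the groups are smaller and separate more easily. For neither count is the share over all transcripts given here, so neither is read as a result about the members.

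The replicate number was not taken as a pairing, since the study's methods name no block. Same-numbered gas and dCAMP libraries correlated at 0.130, 0.024 and 0.048 in their deviations from the group means. Differently numbered pairs ran from -0.139 to 0.087. In transcript shares over 6523 genes, same-numbered pairs correlated at -0.0076, 0.0047 and -0.0115, and the other pairs ran from -0.0076 to 0.0151. With so few libraries these values do not settle whether they were paired. With the replicate block 0 of 7 members and 0 of the 78 other genes had an adjusted p under 0.05. A count of 0 in a library allows up to 3 counts, which covers counting error only.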
